A study of Mus musculus with 12 samples.

Results

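Gm26917, Gm42418, Malat1, Neat1 and Lars2 were chosen by their gene names, 5 genes of the 53465 in the deposited gene expression table. They form 1 group here as abundant nuclear or rRNA-linked RNAs, although Lars2 was far from abundant. Gm26917 had more counts than any other gene in every library, which was known when the genes were chosen. Its level, and the share of counts that each of the 5 genes took, is therefore given here as a description with no test. The libraries came from LSKs, the Lineage- Sca-1+ c-Kit+ fraction of mouse bone marrow that holds hematopoietic stem cells and multipotent progenitors. The study asked what loss of Tespa1 does to these cells at rest and while the marrow recovers from 5-fluorouracil (5-FU), a drug that kills dividing cells. There were 4 groups of 3 libraries: untreated wild-type littermates, untreated Tespa1-/- mice, and both genotypes on day 9 after 5-FU. The mice were males of 8 to 10 weeks on a C57BL/6 background, the Tespa1-/- mice carried the germline tm1Smoc allele in every cell, and the treated mice had 1 intraperitoneal injection of 5-FU. The labels do not say whether the 3 libraries of a group came from separate mice, so the p-values below measure the spread between libraries, which may be technical.

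Malat1 is a long RNA held in nuclear speckles, the bodies that store splicing factors, and Neat1 is the scaffold RNA of paraspeckles, bodies that form around it with proteins such as SFPQ and NONO. Both are transcribed by RNA polymerase II, but their long forms have no poly-A tail. RNase P cuts a tRNA-like small RNA off the 3′ end, and an A-rich stretch then folds back on U-rich stretches as a triple helix that protects the end. Ribosomal RNA is made from tandem repeats in which the 18S, 5.8S and 28S parts are separated by spacers that are cut away, and several mouse genes named Gm lie in pieces of such repeats outside the main arrays. Lars2 encodes the mitochondrial leucyl-tRNA synthetase, which loads leucine on mitochondrial tRNAs.

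All positions are on GRCm38. Gm26917 (ENSMUSG00000097971) lies on the plus strand of chromosome 17 at 39843013-39846341, and Gm42418 (ENSMUSG00000098178) follows on the same strand at 39846958-39848788, 616 bases on. Between and across them lies CT010467.1, typed as rRNA and annotated on the minus strand, at 39846353-39848827. Its transcript of 1849 bases, read on the opposite strand, begins with the letters that open mature 18S rRNA, 11 bases after the last base of Gm26917. Gm42418 begins at base 606 of that 18S-like sequence, its first 1244 bases are identical to the rest of it, and its last 587 bases lie beyond it. Gm26917 thus lies wholly upstream of the 18S-like sequence, and its longest run shared with that sequence or with the mitochondrial rRNAs was 13 bases. RefSeq lists Gm42418 as a synonym of Rn18s-rs5, an 18S-related gene. The end of Gm26917 and the opening of the 18S-like sequence are printed to show where one stops and the other begins, with the opening letters of 18S rRNA in capitals:
Gm26917, last 60 bases, chr17:39846282-39846341, plus strand: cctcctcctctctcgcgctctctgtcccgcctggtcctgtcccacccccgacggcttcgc
18S-like sequence, first 60 bases, chr17:39846353-39846412, plus strand: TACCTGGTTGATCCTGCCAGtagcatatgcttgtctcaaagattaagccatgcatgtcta

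The 18S-like part of Gm42418 shares a run of 15 bases with mt-Rnr1, the mitochondrial 12S rRNA, at base 1199 of Gm42418 and base 911 of mt-Rnr1. Of 55341 genes with transcripts in the GENCODE M21 set, this run was on the sense strand of 2 (0.00361%), these same genes. The printed stretch of Gm42418 runs past the end of its 18S-like part at base 1244. The stretches around the run are printed because they place that part within a small-subunit rRNA, with the shared run in capitals:
Gm42418, chr17:39848141-39848215, plus strand: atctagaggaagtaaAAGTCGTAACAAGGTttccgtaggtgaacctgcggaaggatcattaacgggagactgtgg
mt-Rnr1, chrM:965-1024, plus strand: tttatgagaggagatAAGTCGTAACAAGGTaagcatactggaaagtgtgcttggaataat

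Malat1 (ENSMUSG00000092341) and Neat1 (ENSMUSG00000092274) lie on the minus strand of chromosome 19, at 5795690-5802672 and 5824708-5845478, with 22035 bases between them. Their 3′ ends are alike: 3 runs of 11 bases or more were shared in the same order, the longest of 16 bases, and that longest run was on the sense strand of 2 of the 55341 genes (0.00361%), again these same genes. The first 2 runs hold the U-rich stretches, written as T, and the last one the A-rich stretch. The ends are printed with the shared runs in capitals:
Malat1, near its end, chr19:5795963-5796082, minus strand: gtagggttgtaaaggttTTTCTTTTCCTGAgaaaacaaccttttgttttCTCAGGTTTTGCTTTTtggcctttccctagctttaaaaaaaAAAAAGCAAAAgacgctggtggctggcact
Neat1, its last 120 bases, chr19:5824708-5824827, minus strand: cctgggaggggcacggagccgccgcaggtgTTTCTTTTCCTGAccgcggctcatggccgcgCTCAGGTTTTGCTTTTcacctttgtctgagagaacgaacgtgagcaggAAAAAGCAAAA
The annotated Malat1 runs on past the A-rich stretch into its tRNA-like part, whereas the annotated Neat1 stops there and its tRNA-like part is a gene of its own, Gm27702, with 0 bases between them. The tRNA-like sequences of 57 and 56 bases share 2 runs of 8 bases or more, in capitals, and differ by 17 base changes, insertions or deletions:
Malat1, tRNA-like part, chr19:5795925-5795981, minus strand: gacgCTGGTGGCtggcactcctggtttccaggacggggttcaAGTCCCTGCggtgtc
Gm27702, chr19:5824652-5824707, minus strand: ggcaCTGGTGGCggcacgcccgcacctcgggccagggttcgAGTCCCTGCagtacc
Gm27702 had 0 to 6 counts in a library, beside 17475 to 27293 for Neat1.

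Lars2 (ENSMUSG00000035202) lies on the plus strand of chromosome 9 at 123366927-123462666. It is a protein-coding gene, its longest run shared with the 18S-like sequence or the mitochondrial rRNAs was 14 bases, against 13 for Neat1 and 12 for Malat1, and it was far from abundant, so a description of the 5 genes as abundant noncoding RNAs holds for 4 of them. Other parts of the rRNA repeat were not searched, so the run lengths do not show whether Lars2 holds a stretch like one of those.

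**Figure D1:**
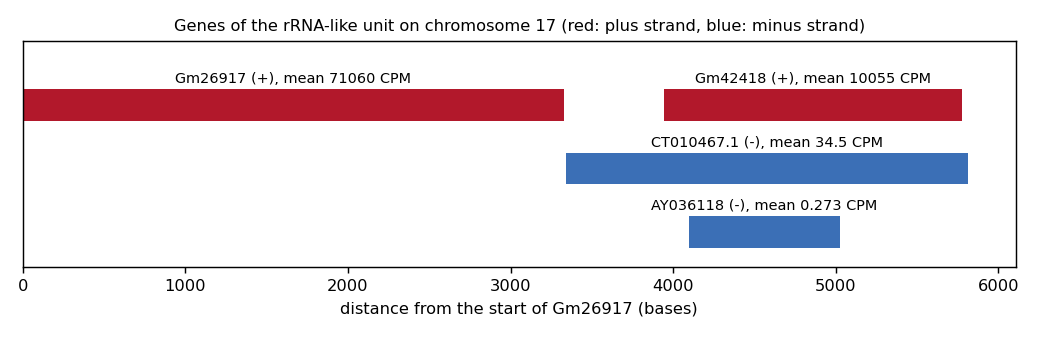
Gm26917, Gm42418 and the genes annotated on the other strand, drawn to scale by distance in bases from the start of Gm26917 (red for the plus strand, blue for the minus strand) and labelled with mean CPM. CT010467.1, which holds the 18S-like sequence, covers all of Gm42418 and starts 11 bases after the end of Gm26917.

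The libraries held 22118154 to 28275079 counts and their RNA was selected on poly-T beads. Genes with a count numbered 27219 to 29523 in untreated Tespa1-/- libraries and 21141 to 24745 in the other 9. Tespa1 itself, with CPM, the counts scaled to a common library size after TMM normalization, of 43.0 to 49.8 in untreated wild-type and 34.5 to 34.9 in untreated Tespa1-/- libraries, was lower in Tespa1-/- LSKs (log2 fold change -0.42, adjusted p = 0.032), and lower again after 5-FU (-1.47, adjusted p = 9.4e-05), with reads remaining in every library. Summed over 10 markers of LSKs, all detected, the level was 1700 to 1800 CPM in untreated wild-type, 1418 to 1476 in untreated Tespa1-/-, 1454 to 1526 in wild-type 5-FU and 880 to 966 in Tespa1-/- 5-FU libraries. In the same order, 10 granulocyte and monocyte markers summed to 75.2 to 100.2, 117 to 124, 79.4 to 88.5 and 1124 to 1139 CPM, and 5 red cell markers to 5.10 to 7.91, 6.06 to 15.03, 13.4 to 19.8 and 346 to 364 CPM. The 5 B cell markers summed to 45.6 to 52.2, 22.9 to 28.5, 227 to 233 and 240 to 270 CPM and the 5 T cell markers to 34.5 to 40.0, 35.3 to 39.3, 19.1 to 21.9 and 17.1 to 24.8 CPM, and no marker was at 0 in every library.

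Together the 5 genes took 8.16% ± 0.159 of all counts in untreated wild-type, 9.68% ± 0.255 in untreated Tespa1-/-, 8.04% ± 0.134 in wild-type 5-FU and 10.3% ± 0.249 in Tespa1-/- 5-FU libraries (SD, n = 3). Gm26917 made up most of this. Its share of counts was 6.19%, 6.43% and 6.13% in the untreated wild-type libraries and 7.47%, 7.44% and 7.88% in the untreated Tespa1-/- libraries. After 5-FU it was 6.42%, 6.24% and 6.19% in wild-type and 8.10%, 8.41% and 8.35% in Tespa1-/- libraries. The 95% Wilson interval of each share reached at most 0.0115 percentage points to either side, which covers counting error only. Every Tespa1-/- library lay above every wild-type library, and the wild-type libraries with and without 5-FU overlapped. Pairwise, the CPM groups did not overlap for 25.6% to 38.6% of all genes tested.

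Gm42418 took 0.919%, 0.820% and 0.824% of counts in untreated wild-type and 1.08%, 1.08% and 1.12% in untreated Tespa1-/- libraries. After 5-FU it took 0.892%, 0.861% and 0.841% in wild-type and 1.10%, 1.29% and 1.24% in Tespa1-/- libraries. Its order over the groups was that of Gm26917, with no overlap between the genotypes. Malat1 took 0.957%, 0.974% and 0.950% in untreated wild-type and 0.905%, 0.896% and 0.878% in untreated Tespa1-/- libraries, then 0.805%, 0.831% and 0.819% in wild-type 5-FU and 0.692%, 0.666% and 0.693% in Tespa1-/- 5-FU libraries. The 4 groups of Malat1 shares did not overlap at all, and they were lower in that order. In the pairwise comparisons the CPM groups did not overlap for 25.6% to 38.6% of all genes tested. The share of genes with all 4 groups apart, or with the genotypes apart over both treatments, was not counted. Neat1 took 0.0725% to 0.0998% and Lars2 0.00184% to 0.00307% of the counts of a library, the latter from 419 to 779 counts.

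**Figure D2:**
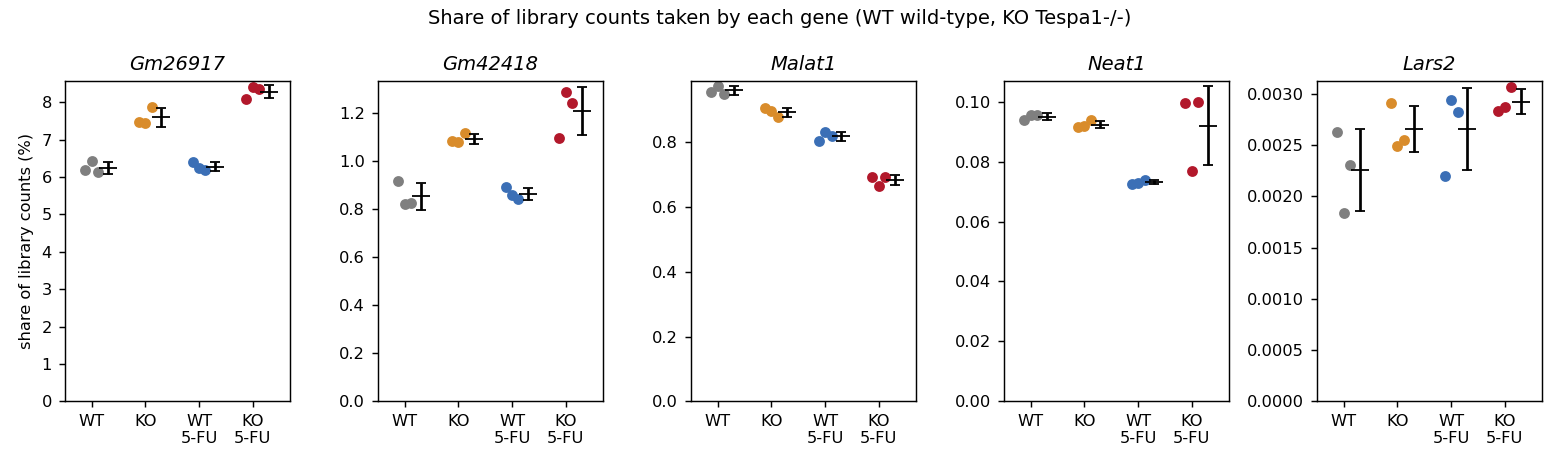
Share of all counts of a library, in percent, for each of the 5 genes in the 4 groups, with 1 point a library and bars for the mean and SD (n = 3). Gm26917 runs from 6.13% to 8.41%, and the wild-type and Tespa1-/- points of Gm26917 and Gm42418 do not overlap. In pairwise comparisons the CPM groups of 25.6% to 38.6% of all genes tested do not overlap.

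Over the 12 libraries the 10 genes with most counts held 21.3% of all counts. Gm26917 was first with a mean share of 7.10%, ahead of the mitochondrial 16S rRNA gene mt-Rnr2 with 5.76% and the 12S gene mt-Rnr1 with 2.61%. Rn7s1, which encodes the 7SL RNA of the signal recognition particle, had 1.46%, Gm42418 had 1.005%, Rpph1, the RNA subunit of RNase P, had 0.892%, and Malat1 had 0.839% and rank 7. Rn7s2, another 7SL gene, Rn7sk, the 7SK RNA that holds back the elongation factor P-TEFb, and Hsp90ab1, a chaperone, followed with 0.716%, 0.526% and 0.429%. Of these 10 RNAs Hsp90ab1 is the only mRNA. Neat1 ranked 61 and Lars2 6268 by mean CPM, and within single libraries their ranks ran from 43 to 87 and from 5762 to 7310, whereas Gm26917 was at 1 in all 12.

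Per kilobase of annotated exon the order was Gm26917 with a mean of 21346 CPM per kb (18180 to 25393 over the 12 libraries), Gm42418 with 5491 (4495 to 7057), Malat1 with 1202 (958 to 1414), Neat1 with 42.5 (34.3 to 48.0) and Lars2 with 2.37 (1.68 to 2.76). The ranges of neighbours in this order did not overlap. Exon lengths were 3329 bases for Gm26917, 1831 for Gm42418, 6983 for Malat1, 20771 for Neat1 and 11089 for Lars2, and the lengths implied by the deposited FPKM were greater for 4 of them, at 4198 bases for Gm26917, 9336 for Malat1, 24805 for Neat1 and 15008 for Lars2, so the levels per kb depend on which transcripts are counted.

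**Figure D3:**
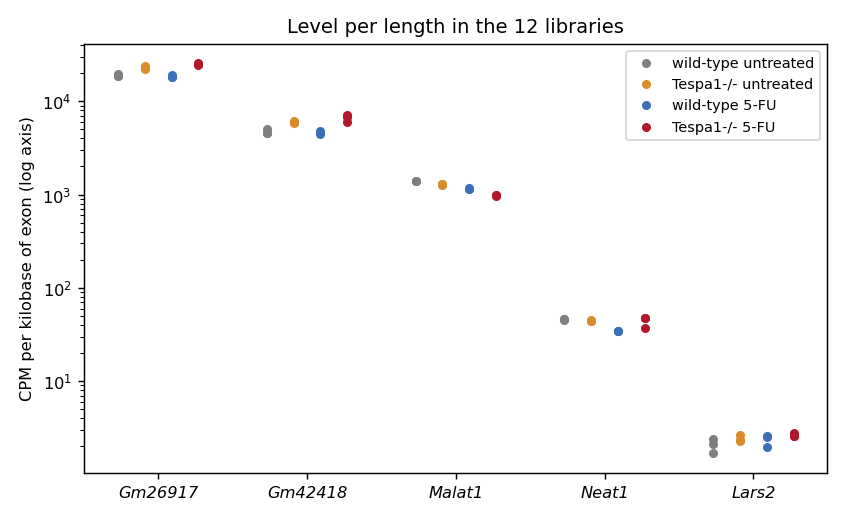
CPM per kilobase of annotated exon of the 5 genes on a log axis, with 1 point for each of the 12 libraries. The points of neighbouring genes do not overlap, from 1.68 to 2.76 for Lars2 up to 18180 to 25393 for Gm26917.

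In untreated LSKs, Gm26917 and Gm42418 were higher and Malat1 was lower in Tespa1-/- than in wild-type libraries. In CPM, Gm26917 was 63296 ± 1604 in wild-type and 76347 ± 2744 in Tespa1-/- LSKs (SD, n = 3), 20.8% higher (log2 fold change 0.27, SE 0.03, adjusted p = 7.5e-04 by the quasi-likelihood test of edgeR, adjusted over all genes by Benjamini and Hochberg). Gm42418 was 8653 ± 532 and 10979 ± 254 CPM, 27.1% higher (0.35, SE 0.04, adjusted p = 0.0018). Malat1 was 9726 ± 126 and 8975 ± 111 CPM and fell by 7.57% (-0.11, SE 0.01, adjusted p = 0.0033). Its adjusted p ran from 7.5e-04 to 0.59 over the other settings tried, the 0.59 being that of edgeR's exact test. The groups of these 3 genes did not overlap, as held for 25.6% of all genes tested.

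Neat1 and Lars2 did not pass the test. Neat1 was 962 ± 14.7 CPM in wild-type and 928 ± 15.7 in Tespa1-/- LSKs (-0.05, SE 0.03, adjusted p = 0.43). Lars2 was 22.9 ± 3.99 and 26.7 ± 2.24 CPM (0.22, SE 0.15, adjusted p = 0.49). So 3 of the 5 genes were called, 2 higher and 1 lower, against 5.23% of the 17055 genes tested, 1.64% higher and 3.59% lower. None of the 5 genes changed by over 1.5-fold, the fold the study asked for, in this or any comparison below.

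After 5-FU the genotypes differed in the same 3 genes and in Neat1. Gm26917 was 61565 ± 1399 CPM in wild-type and 83032 ± 1674 in Tespa1-/- LSKs, 34.5% higher (log2 fold change 0.43, SE 0.02, adjusted p = 8e-07). Gm42418 was 8475 ± 278 and 12111 ± 998 CPM, 42.5% higher (0.51, SE 0.05, adjusted p = 2.2e-04). Malat1 was 8020 ± 99.6 and 6854 ± 141 CPM and fell by 14.8% (-0.23, SE 0.02, adjusted p = 4.8e-05), with a range of 1.7e-08 to 0.11 over the other settings, the highest again from edgeR's exact test. In this comparison 4 of the 5 genes were called, 3 higher and 1 lower, against 13.1% of the 17239 genes tested, 7.34% higher and 5.78% lower (55.9% of calls higher, and 49.4% under library totals in place of TMM), and the same 4 did not overlap, against 33% of all genes. Lars2 was 26.0 ± 3.84 and 29.3 ± 1.14 CPM (0.17, SE 0.14, adjusted p = 0.50).

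Neat1 after 5-FU was 714, 711 and 722 CPM in the wild-type libraries and 998, 771 and 997 CPM in the Tespa1-/- libraries. All 3 Tespa1-/- libraries were above the wild-type ones, but the second lay nearest to them and well below the other two. The mean was 28.4% higher (0.36, SE 0.09, adjusted p = 0.024). The call was lost when any 1 of the other 5 libraries was left out (0.30 to 0.37, adjusted p 0.067 to 0.087), and without the second Tespa1-/- 5-FU library it was 0.48 (adjusted p = 1.5e-04). Gm27505, a small RNA gene of 110 bases that lies inside Neat1 on the same strand, had 1 count in each of the 2 high libraries and 437 in the second, and 304 to 456 counts in the 10 libraries apart from those 2. The libraries with 1 count of Gm27505 were thus those with most Neat1, 997 CPM or more against at most 972 elsewhere. Adding Gm27505 to Neat1 gave 998, 788 and 997 CPM in the Tespa1-/- 5-FU libraries and 725 to 734 in wild-type 5-FU ones. Whether the way reads were divided between the 2 genes has a part in the Neat1 result was not tested.

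**Figure D4:**
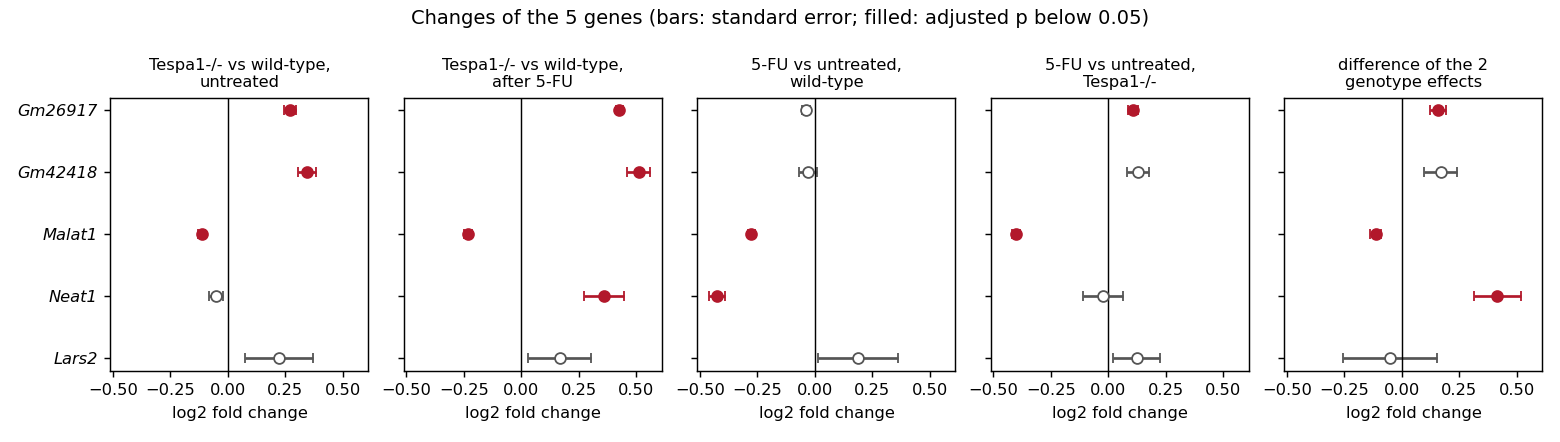
log2 fold changes of the 5 genes in the 4 pairwise comparisons and in the interaction, with bars of 1 SE, filled points marking adjusted p under 0.05. The Malat1 changes all lie below 0, and the Neat1 bars in comparisons with Tespa1-/- 5-FU libraries are wider than in the others, 0.09 to 0.10 against 0.03.

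The change with 5-FU within each genotype uses the same libraries as above, so the comparisons share groups and are set side by side only. In wild-type LSKs, Malat1 fell by 17.4% (log2 fold change -0.28, SE 0.02, adjusted p = 1.8e-05) and Neat1 fell by 25.5% (-0.43, SE 0.03, adjusted p = 1.0e-04), and in neither gene did the groups overlap. For Malat1 the other settings gave adjusted p from 6.5e-09 to 0.051, the highest from edgeR's exact test. Gm26917 and Gm42418 had log2 fold changes of -0.04 (SE 0.02, adjusted p = 0.30) and -0.03 (SE 0.04, adjusted p = 0.75), and with library totals in place of TMM both values lay above 0, at 0.0085 and 0.018. Lars2 was at 0.19 (SE 0.17, adjusted p = 0.61). Of the 5 genes 2 were called, both lower, against 7.95% of the 17002 genes tested, 3.77% higher and 4.18% lower (47.4% of calls higher, and 58.2% under library totals), and non-overlap held for 28.5% of all genes.

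In Tespa1-/- LSKs, Malat1 fell by 24.3% with 5-FU (-0.40, SE 0.02, adjusted p = 1.7e-06) and Gm26917 rose by 7.83% (0.11, SE 0.02, adjusted p = 0.011). The Gm26917 call had adjusted p from 0.0013 to 0.51 over the other settings, the 0.51 from edgeR's exact test. Neat1 was at -0.02 (SE 0.09, adjusted p = 0.90), with the 2 high libraries above and the second below all untreated Tespa1-/- libraries, which held 918, 920 and 946 CPM. Gm42418 was at 0.13 (SE 0.05, adjusted p = 0.11), and without the first Tespa1-/- 5-FU library it was at 0.20 (adjusted p = 0.0015, in a range of 0.0015 to 0.46). Lars2 was at 0.12 (SE 0.10, adjusted p = 0.46). Here 2 of the 5 genes were called, 1 higher and 1 lower, against 19.4% of the 17228 genes tested, 10.7% higher and 8.64% lower, and 38.6% of all genes did not overlap.

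The difference between the genotype effect after 5-FU and that in untreated LSKs was tested as an interaction. It was 0.16 on the log2 scale for Gm26917 (SE 0.03, adjusted p = 0.018), -0.11 for Malat1 (SE 0.02, adjusted p = 0.012) and 0.42 for Neat1 (SE 0.10, adjusted p = 0.035). These 3 of 5 calls stand against 5.01% of the 18696 genes tested, 3.02% higher and 1.99% lower (60.3% of calls higher, and 50.5% under library totals). Gm42418 had 0.17 (SE 0.07, adjusted p = 0.23), close to Gm26917 in size with a larger SE, and Lars2 -0.05 (SE 0.21, adjusted p = 0.93). With 1 library left out at a time, Gm26917 dropped under the threshold in 6 of 12 fits, without the first or the second untreated Tespa1-/-, the second or the third Tespa1-/- 5-FU, or the second or the third wild-type 5-FU library (0.13 to 0.15, adjusted p 0.051 to 0.089). Neat1 did so in 10 of 12 fits (0.34 to 0.43, adjusted p 0.064 to 0.097), all but those without the second Tespa1-/- 5-FU or the first untreated wild-type library. Library totals in place of TMM ended both calls (0.12 and 0.37, adjusted p = 0.064 and 0.061), and DESeq2 ended that of Gm26917 (adjusted p = 0.058) and of Malat1 (adjusted p = 0.054), which no filter on low counts ended too (adjusted p = 0.12). Without the first Tespa1-/- 5-FU library the Gm42418 value was 0.22 (adjusted p = 0.048).

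The granulocyte and monocyte sum, the red cell sum and the B cell sum were highest and the LSK sum lowest in the group where Gm26917 was highest and Malat1 lowest. After 5-FU, 8 of the 10 granulocyte and monocyte markers and 5 of the 5 red cell markers rose and 8 of the 10 LSK markers fell in Tespa1-/- against wild-type libraries, with 1 of 5 T cell and 1 of 5 B cell markers higher. In untreated cells 1 of 5 tested granulocyte and monocyte markers rose, 3 of 10 LSK markers fell and 3 of 4 tested B cell markers fell. With 5-FU, LSK markers went both ways, 2 of 10 higher and 2 lower in wild-type and 3 higher and 2 lower in Tespa1-/- LSKs. B cell markers rose with 5-FU in both genotypes, 4 of 4 tested in wild-type, where Gm26917 had no call, and 4 of 5 in Tespa1-/- LSKs. Granulocyte and monocyte markers rose with 5-FU in 1 of 6 tested cases in wild-type and in 9 of 10 in Tespa1-/- LSKs, where 1 fell, and red cell markers in 1 of 4 and 5 of 5. Of the T cell markers 1 of 2 tested fell with 5-FU in wild-type, and 1 rose and 2 fell of 5 in Tespa1-/- LSKs. The part of cell makeup in the changes of the 5 genes was not tested, and in RNA from a whole cell fraction fewer cells of a type and less RNA per cell cannot be told apart.

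Ratios of counts within a library do not depend on its scaling. Gm42418 had 13.7 ± 1.06 counts per 100 of Gm26917 in untreated wild-type, 14.4 ± 0.182 in untreated Tespa1-/-, 13.8 ± 0.152 in wild-type 5-FU and 14.6 ± 0.918 in Tespa1-/- 5-FU libraries (SD, n = 3), with 12.8 to 15.3 over all. The ratio of Gm26917 to mt-Rnr2, both rRNA-linked but made in different compartments, was 1.05 ± 0.0292, 1.31 ± 0.0369, 1.06 ± 0.0206 and 1.56 ± 0.0724 in the same order, higher in every Tespa1-/- than in every wild-type library. Malat1 had 10.1 ± 0.153, 9.68 ± 0.275, 11.2 ± 0.183 and 7.53 ± 0.997 counts per count of Neat1, with 8.68 in the second Tespa1-/- 5-FU library.

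Genes that overlap the 5 genes took few counts. CT010467.1 lies over all of Gm42418 on the opposite strand and had 404 to 1251 counts, 0.179% to 0.601% of those of Gm42418, and AY036118, also on the opposite strand, had 2 to 16. CT010467.1 was 41.2 CPM in untreated wild-type and 20.7 CPM in wild-type 5-FU libraries, a fall (-0.99, adjusted p = 0.027) where Gm42418 had no call. Whether counting used the strand is not given in the sources used here, so reads of Gm42418 and of its partners on the other strand may not be told apart, and reads from the many near-identical rRNA repeats could map to this unit too. Inside Malat1 lie Gm37376 on the opposite strand, with 9 to 54 counts, Gm20417, with 22 to 94, and Gm27694, with exactly 1 count in each of the 12 libraries. Gm27533 and Gm28006 inside Neat1 also had exactly 1 count in each library. Among the genes within 50 kb with a mean of at least 1 CPM, Ltbp3, which encodes a protein that binds latent TGF-β, was called in every comparison but 5-FU in wild-type LSKs: its CPM were 69.4, 54.9, 60.7 and 28.4 in the 4 groups (-0.34, adjusted p = 0.025 untreated and -1.10, adjusted p = 1.5e-04 after 5-FU, -0.96, adjusted p = 5.5e-05 with 5-FU in Tespa1-/- LSKs and -0.76, adjusted p = 0.0013 in the interaction). Frmd8, Slc25a45 and Tigd3 near Malat1 and Neat1 and Limd1 near Lars2 had no call in any comparison, and Scp2-ps2 near Lars2 fell with 5-FU in Tespa1-/- LSKs (-2.19).

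The gene lists that follow are counted by edgeR, and their called shares are given in the order untreated genotype, genotype after 5-FU, 5-FU in wild-type, 5-FU in Tespa1-/- and interaction, for which 5.23%, 13.1%, 7.95%, 19.4% and 5.01% of all genes were called. Among 10 rRNA-linked genes listed, 6 were in the table. In untreated LSKs 2 of 5 tested were higher in Tespa1-/-, both being genes described above, and none lower, with a median log2 fold change of 0.22 against 0.01 over all genes. The list holds Gm26917, Gm42418 and Lars2, and that median is the value of Lars2, which had no call, so it restates the genes described above. After 5-FU 2 of 6 were higher, the same Gm26917 and Gm42418, and 1 was lower, mt-Rnr2 (58249 and 53271 CPM, -0.13, adjusted p = 0.0012). With 5-FU 0 of 6 were called in wild-type LSKs by edgeR or DESeq2, and 2 had an unadjusted p under 0.05. In Tespa1-/- LSKs Gm26917 was higher, and mt-Rnr1 (-0.17, adjusted p = 0.0046) and mt-Rnr2 (-0.15) were lower, of 5 tested. In the interaction 1 of 6 was higher, Gm26917, and by DESeq2 0 were. Of the 354 genes typed as rRNA, 16 to 22 were tested, 2 rose in untreated Tespa1-/- LSKs, the 5S genes n-R5s118 (16.9 and 37.2 CPM, 1.13, adjusted p = 0.011) and n-R5s194 (12.7 and 25.6 CPM, 1.01, adjusted p = 0.024), 1 fell with 5-FU in wild-type LSKs, CT010467.1, and 0 were called by edgeR in the other 3 comparisons (unadjusted p under 0.05 in 1, 0 and 3, and 1, 0 and 0 called by DESeq2, for genotype after 5-FU, 5-FU in Tespa1-/- LSKs and the interaction). By DESeq2 1 was also higher with 5-FU in wild-type LSKs.

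Structural RNAs that, like the long forms of Malat1 and Neat1, carry no poly-A tail were abundant in these libraries although RNA was selected on poly-T beads. Of 10 listed, 8 were tested. In untreated LSKs 5 rose and 0 fell in Tespa1-/-, with a median of 0.55. Rpph1, whose RNase P makes the ends of Malat1 and Neat1, was 4297 ± 483 CPM in wild-type and 8097 ± 739 in Tespa1-/- libraries (0.92, adjusted p = 6.6e-04). Rn7s1 was 12009 ± 516 and 18192 ± 616 CPM (0.60). Its reads may be split with the near-identical Rn7s2, which was 5853 and 8797 CPM (0.59). With 5-FU 5 rose and 1 fell in wild-type LSKs (median 0.27), among them Rpph1 at 11995 ± 1138 CPM (1.48) and Rn7sk at 5960 ± 121 against 4469 ± 296 CPM (0.42). In Tespa1-/- LSKs 1 rose and 5 fell with 5-FU (median -0.36), and after 5-FU 0 were higher and 2 lower in Tespa1-/- (median -0.13), Rn7sk (4640 CPM, -0.37) and Rprl3, an RNase P RNA-like gene that had 0 to 2 counts in each Tespa1-/- 5-FU library and 318 ± 19.3 CPM in wild-type ones. The called shares were 62.5%, 25%, 75%, 75% and 87.5%. In the interaction 7 of 8 were lower (median -0.71), where Gm26917 and Neat1 were higher. By group means, Rpph1 was highest in wild-type 5-FU LSKs, where none of the 5 genes was.

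**Figure D5:**
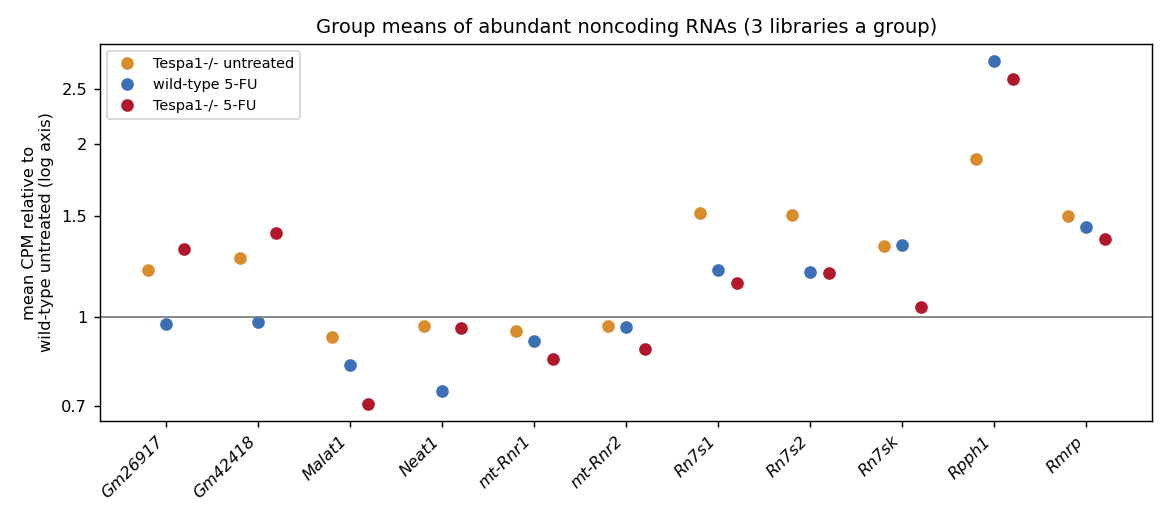
Group mean CPM relative to that of untreated wild-type LSKs, on a log axis, for Gm26917, Gm42418, Malat1, Neat1 and 7 other abundant noncoding RNAs, with 1 point for each of the other 3 groups (3 libraries a group). Gm26917 and Gm42418 are above the line of no change in both Tespa1-/- groups, Malat1 lies below it in all 3, and Rpph1 lies farthest above it.

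Paraspeckle proteins, the partners of Neat1, were all tested, 20 of 20. In untreated Tespa1-/- LSKs 6 were lower and none higher, with a median of -0.13 against 0.01 over all genes, where Neat1 was at -0.05. Among them were Sfpq (1183 and 977 CPM, -0.27, adjusted p = 0.0045), an RNA-binding protein that paraspeckles need, and Ewsr1 (-0.17, adjusted p = 0.039). With 5-FU 5 fell and 1 rose in wild-type LSKs (median -0.16), Sfpq among those that fell (-0.28) and Smarca4, a chromatin remodelling ATPase, the one that rose (0.30), while Neat1 fell as well. After 5-FU 3 were higher and 1 lower in Tespa1-/- (median -0.04), with Dazap1 (97.98 and 125 CPM, 0.35) and Smarca4 (767 and 900 CPM, 0.23) higher and Matr3, a nuclear matrix protein, lower (-0.23). In Tespa1-/- LSKs 2 rose and 3 fell with 5-FU (median -0.06), and in the interaction 4 were higher and 1 lower (median 0.14). The called shares were 30%, 20%, 30%, 25% and 25%. By DESeq2 1 was higher in untreated Tespa1-/- LSKs, and after 5-FU 3 were higher and 3 lower, against 1 higher and 0 lower by edgeR's exact test. Nono had no call (363.8 to 412.7 CPM as group means).

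Of 25 nuclear speckle and SR proteins, the partners of Malat1, 0 rose and 2 fell in untreated Tespa1-/- LSKs and 3 rose and 3 fell after 5-FU (medians -0.08 and -0.06). With 5-FU 0 rose and 4 fell in wild-type and 1 rose and 7 fell in Tespa1-/- LSKs (medians -0.12 and -0.09), and 1 was higher in the interaction (median 0.03). The called shares were 8%, 24%, 16%, 32% and 4%. By DESeq2 1 was higher and 5 lower in untreated Tespa1-/- LSKs, and 0 were higher with 5-FU in wild-type LSKs. Clk1, a kinase of SR proteins, was 369, 276, 276 and 196 CPM in the 4 groups and fell in each pairwise comparison, as Malat1 did (-0.42, -0.50, -0.42 and -0.51). Srsf9, a splicing factor, rose after 5-FU in Tespa1-/- LSKs against wild-type (0.50, adjusted p = 0.014). The structural speckle proteins Son and Srrm2 were called in no comparison.

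Among other long noncoding RNAs, 15 of 17 listed were in the table and 12 or 13 were tested. In untreated Tespa1-/- LSKs 1 rose and 0 fell, and after 5-FU 0 rose and 2 fell (medians 0.13 and -0.08). With 5-FU 1 rose in wild-type and 2 fell in Tespa1-/- LSKs (medians 0.12 and -0.16), and 2 were lower in the interaction (median -0.21). The called shares were 8.33%, 16.7%, 8.33%, 16.7% and 15.4%, and by DESeq2 1 was higher with 5-FU in Tespa1-/- LSKs. Kcnq1ot1, the RNA of an imprinted domain, was 314, 397, 417 and 361 CPM in the 4 groups and accounts for both single rises. Firre, a nuclear RNA from the X chromosome, was 75.5, 82.1, 87.0 and 59.8 CPM and with Kcnq1ot1 made up the falls. Tug1 had no call.

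The 17 mitochondrial aminoacyl-tRNA synthetases, the family of Lars2, were all tested. In edgeR 0 were called in untreated LSKs (2 with an unadjusted p under 0.05, 1 higher by DESeq2), with 5-FU in wild-type LSKs (1 and 1) and in the interaction (1 and 0), while 1 (5.88%) rose after 5-FU in Tespa1-/- against wild-type and 2 (11.8%) rose with 5-FU in Tespa1-/- LSKs. The medians were 0.17, 0.17, 0.17, 0.12 and -0.01 in the order untreated genotype, genotype after 5-FU, 5-FU in wild-type, 5-FU in Tespa1-/- and interaction, beside 0.22, 0.17, 0.19, 0.12 and -0.05 for Lars2. Lars2 is itself on this list. The medians for genotype after 5-FU and for 5-FU in Tespa1-/- LSKs are its own values, so their match is no likeness. Pars2, the prolyl enzyme, rose in both cases (4.23 and 7.39 CPM in the groups after 5-FU, 0.80, adjusted p = 0.044), and Iars2, the isoleucyl enzyme, rose with 5-FU in Tespa1-/- LSKs (71.5 to 92.8 CPM, 0.36, adjusted p = 0.0099).

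Of the RNA polymerase I machinery, which transcribes the rRNA repeats, 19 genes were tested. In the same order 0, 1, 0, 1 and 0 rose and 1, 1, 1, 2 and 0 fell, with medians of 0.09, 0.04, 0.02, 0.02 and -0.08. The interaction, with 0 called by edgeR, had 4 with an unadjusted p under 0.05 and 1 called by DESeq2, which also had 1 higher with 5-FU in wild-type LSKs. The called shares were 5.26%, 10.5%, 5.26%, 15.8% and 0%. Ubtf, which opens the repeats for transcription, rose after 5-FU in Tespa1-/- against wild-type LSKs (218 and 267 CPM, 0.29, adjusted p = 0.0049), where Gm26917 was higher too. Taf1d, a subunit of the promoter factor SL1, fell there (415 and 313 CPM, -0.41, adjusted p = 7.6e-04). Of 18 nuclear exosome and rRNA surveillance genes tested, which trim and destroy spacer pieces, 0 rose in any comparison by edgeR or DESeq2, and 1, 1, 0, 1 and 0 fell, with medians of 0.01, -0.04, -0.03, 0.02 and 0.06. Of the 2 comparisons with 0 calls by edgeR, 5-FU in wild-type LSKs had 2 genes with an unadjusted p under 0.05 and 2 lower by DESeq2, and the interaction had 0 and 0. The comparisons with 1 call each had a called share of 5.56%. Xrn2, the nuclear 5′ to 3′ exonuclease, was the one that fell (-0.29, adjusted p = 0.027 untreated and -0.24, adjusted p = 0.024 after 5-FU).

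By Pearson correlation of log2(CPM + 1) over the 12 libraries among 9435 genes with a mean of at least 10 CPM, the gene most like Gm26917 was Mpo, the peroxidase of granulocyte precursors (r = 0.978), followed by the replication histone genes Hist1h3b (0.974) and Hist1h3d (0.973), Rab44 (0.971) and Gm42418 (0.964). Gm42418 was closest to Hist1h3b (0.968), Tomm40 (0.966), Gm26917, Hist1h3d (0.962) and Hist1h2ae (0.958). Within the groups, after each group's mean was taken out, the correlation of Gm26917 and Gm42418 was 0.412. Malat1 was closest to Flt3, the receptor kinase of multipotent progenitors (0.996), then to Nup153 (0.993), Taf1d (0.991), Cd93 (0.990) and Nav1 (0.988). Flt3 was 610, 493, 314 and 170 CPM in the 4 groups, the order of Malat1. Neat1 had weaker likeness, with Nasp (0.904), Ftsj3 (0.894), Arhgdia (0.887), Trmt2a (0.881) and Orc1 (0.873), as had Lars2, with Mppe1 (0.922), Tmem234 (0.900), S100a13 (0.892), Bfar (0.877) and Arfrp1 (0.866). Malat1 and Neat1 had r = 0.285 over the 12 libraries and 0.647 within the groups. The latter leans on the Tespa1-/- 5-FU group, where the SD of Neat1 was 131 CPM, against 5.40 to 15.7 in the other groups. The second library of that group was its lowest for both genes. These values describe 12 libraries in 4 groups that share library depth and cell makeup, and they carry no test.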

How the data were processed

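RNA of mouse bone marrow LSKs was sequenced in 12 paired-end libraries (4 groups of 3). The deposited table gives, for each of 53465 genes, read counts and FPKM made by the authors. The submitters' processing notes name CASAVA 1.8, HISAT2, StringTie, edgeR and the GRCm38 build, without roles, and the use of strand in counting is not given in the sources used here. FPKM were used only to read the exon length they imply. Groups came from the labels. The members and the gene lists were chosen with earlier results of these data known.

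Shares are counts over the library total. Each comparison was fitted on the deposited counts of its own libraries (all 12 for the interaction) with edgeR 4.0.16 in R 4.3.3: filterByExpr with a minimum count of 10, TMM, the quasi-likelihood test and Benjamini-Hochberg adjustment over all genes tested, with calls at adjusted p under 0.05. Alternatives were DESeq2 1.42.0, edgeR's exact test, scaling by library totals, by RLE or without the members, no filter, at least 10 counts in every library, 1 fit over all libraries, a replicate block, fold limits of 1.5 and leaving out each library. Tables and figures were made in Python 3.11.15. Besides the members, the text named Tespa1, the 10 most abundant genes, genes within 50 kb of a member with a mean of at least 1 CPM, up to 4 most abundant members of each list with its largest changes past the threshold, and the 5 genes most correlated with each member. On simulated counts the test recovered 71%, 65%, 66%, 82% and 51% of genes changed 2-fold and 5%, 5%, 5%, 5% and 2% of those changed 1.25-fold, for genotype in untreated LSKs (17055 genes), genotype after 5-FU (17239), 5-FU in wild-type (17002), 5-FU in Tespa1-/- (17228) and the interaction (18696), and 5.0%, 5.41%, 10.1%, 3.33% and 15.9% of its calls were false. In each simulated set 200 genes were changed, so its false share need not hold for the calls on the data. Sequences and annotation came from GENCODE M21 and its GRCm38 genome. Libraries of a group differed by more than sampling noise (median chi-square per gene 2.08 to 5.87, against 0.455 from sampling alone), and none was counted as a repeat of another. Some genes that the naming rule takes in are not reported here.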

Additional observations from a re-analysis of the deposited data

Results flagged for a closer look

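The genotype effect on 3 of the 5 genes differed between LSKs after 5-FU and untreated LSKs in the interaction test of edgeR, in which 15.9% of the calls made on simulated counts were false. The simulated set had 200 changed genes and the data had 936 interaction calls, so that share may not hold here. The difference was 0.16 on the log2 scale for Gm26917 (adjusted p = 0.018), whose level was higher in Tespa1-/- LSKs in both settings and more so after 5-FU. It was -0.11 for Malat1 (adjusted p = 0.012), which was lower in Tespa1-/- LSKs in both. It was 0.42 for Neat1 (adjusted p = 0.035), which had no call in untreated LSKs. Of 19 other settings each, the call was lost in 8 for Gm26917, in 2 for Malat1 and in 11 for Neat1. The Neat1 value rests on the first and the third Tespa1-/- 5-FU libraries, in which Gm27505 inside Neat1 had 1 count.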

How the results depend on the processing

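Of 395 values of the 5 genes under other settings, 356 kept their direction and their side of the threshold, 30 lost a call, 2 gained one and 7 changed sign, all of the 7 being uncalled. With 5-FU in wild-type LSKs, Gm26917 (0.0085) and Gm42418 (0.018) changed sign under library totals. Leaving out 1 library moved Gm42418 there from -0.058 to 0.023, Neat1 with 5-FU in Tespa1-/- LSKs from -0.082 to 0.094, and the Lars2 interaction from -0.18 to 0.078. Of the 5 genes 0 passed a fold of 1.5 in any of the 5 comparisons, with an adjusted or an unadjusted p under 0.05, although 3, 4, 2, 3 and 4 had an unadjusted p under 0.05 in edgeR, and DESeq2 gave none past that fold (largest log2 change under any setting 0.58). By edgeR's exact test 1 of the 5 genes was called with 5-FU in each genotype, and in the interaction DESeq2 and library totals each called 1. Leaving out 1 library gave 1 to 3 in the interaction.

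Over all genes, untreated calls numbered 892, and 1427 by DESeq2, 428 past 1.5-fold and 338 to 808 with 1 library left out. After 5-FU 1204 of 2261 passed 1.5-fold. With 5-FU in wild-type LSKs there were 1352, and 2062 by DESeq2, 2113 in 1 fit of all libraries, 753 past 1.5-fold and 783 to 1102 with 1 library left out, and library totals moved the higher share of calls from 47.4% to 58.2% (55.9% to 49.4% for genotype after 5-FU, 60.3% to 50.5% in the interaction). With 5-FU in Tespa1-/- LSKs 1735 of 3336 passed 1.5-fold. The interaction had 936, and 1535 by DESeq2, 601 past 1.5-fold, 1941 with an unadjusted p and 1.5-fold, and 573 to 862 with 1 library left out. The share of counts of the 5 genes, 9.04% as a mean, was 9.97% without mitochondrial genes, 9.35% with each gene's total taken without the other 4 and 5.01% on counts per kilobase. For all of these the cause was not tested. A missing call of Lars2, Neat1 or Gm42418 does not show that it did not differ.

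Same-numbered libraries did not deviate together (18 pairs, r -0.057 to 0.047, 0 over 0.1), so the numbers were not read as pairs. With the replicate block, 454 genes were called in untreated LSKs, 1706 after 5-FU, 956 and 2833 with 5-FU in wild-type and Tespa1-/- LSKs, and 742 in the interaction.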

Other observations

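The 5S rRNA gene n-R5s193 had 13079 counts in the third untreated Tespa1-/- library and 14295 in the second wild-type 5-FU library and 0 in the other 10. The filter on low counts left it out of the 5 comparisons as reported.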
